A study of Mus musculus with 10 samples.

Results

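The small leucine-rich proteoglycans are a family of secreted matrix proteins, and 10 of their genes were followed here in mouse left ventricle: Bgn, Dcn, Aspn, Lum, Fmod, Prelp, Omd, Kera, Ogn and Podn. They were chosen by symbol, from the RefSeq accessions of a table of 24160 gene rows, and each of the 10 had a row of its own. Poly(A) RNA from the left ventricle posterior wall was sequenced in 6 libraries from mice without the melanocortin 4 receptor (MC4R-/-) and in 4 from wild type mice (WT). All were C57BL6/J mice from crosses between heterozygous parents, aged 30 weeks and housed at 24 °C, and the series title ties loss of the receptor to dilated cardiomyopathy. No label restricts the loss of the receptor to particular cells. No label ties each library to its own mouse, so the p-values rest on library spread, which may be technical.

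In heart, these proteins are made mainly by fibroblasts and coat collagen fibrils. Their core is a curved array of leucine-rich repeats that binds collagen and sets how fibrils assemble and how thick they grow, and several members also bind growth factors of the TGF-beta family. Most carry glycosaminoglycan chains, chondroitin or dermatan sulfate on Bgn and Dcn and keratan sulfate on Lum, Fmod and Kera, and free fragments of Bgn and Dcn can act on Toll-like receptors.

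The family is divided into classes by the spacing of a group of cysteines before the repeats. The coding sequence of that group is shown for the 10 members, because the results below are ordered by it. The sequences are from GENCODE M21 transcripts (GRCm38) matched by RefSeq accession, 5′ to 3′ on the coding strand, with the 4 cysteine codons in capitals.

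The class I members Bgn, Dcn and Aspn have 3, 1 and 6 codons between successive cysteine codons.

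Bgn: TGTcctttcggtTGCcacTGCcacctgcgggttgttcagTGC
Dcn: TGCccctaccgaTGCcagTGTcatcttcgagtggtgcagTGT
Aspn: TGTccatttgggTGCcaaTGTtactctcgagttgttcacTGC

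The class II members have 3, 1 and 9 codons between them, so their group is 51 bases long where that of class I is 42.

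Lum: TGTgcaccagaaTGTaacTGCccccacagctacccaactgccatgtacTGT
Fmod: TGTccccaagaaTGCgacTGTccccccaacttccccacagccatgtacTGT
Prelp: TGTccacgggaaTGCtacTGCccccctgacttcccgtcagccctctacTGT
Omd: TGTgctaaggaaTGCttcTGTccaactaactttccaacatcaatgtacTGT
Kera: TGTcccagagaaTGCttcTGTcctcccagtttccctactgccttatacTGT

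Ogn, of class III, has 2, 1 and 6 codons, and Podn, of class V, has 3, 1 and 7.

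Ogn: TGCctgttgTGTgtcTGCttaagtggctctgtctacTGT
Podn: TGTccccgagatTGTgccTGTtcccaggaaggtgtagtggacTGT

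In every member the group lies within 1 coding exon, exon 2 in Bgn, Dcn, Aspn, Lum, Fmod, Prelp and Kera, exon 3 in Omd and exon 4 in Ogn and Podn. Its position on GRCm38 is chrX:73490979-73491020 (+ strand) for Bgn, chr10:97483507-97483548 (+) for Dcn and chr10:97568353-97568403 (+) for Lum. For Fmod it is chr1:134040449-134040499 (+), and for Prelp chr1:133915151-133915201 (- strand).

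Levels below are normalized counts, which are a gene's reads after scaling by 1 size factor in each library. The libraries held 4145033 to 6425785 reads, and 14611 genes with a mean of at least 1 normalized count were tested. Genotype was compared with limma on log2(normalized count + 1), with p-values adjusted by Benjamini-Hochberg over all 14611 genes and a threshold of 0.05. Fold changes are MC4R-/- over WT on that scale. The added 1 shrinks differences between low values, while a group mean of log values is not the log of a group mean, so for low genes the printed fold change can lie on either side of the ratio of means. Of the 10 members 9 passed the filter on low values, and Kera did not. Ventricular cardiomyocyte genes dominated the libraries, with a summed 500391 to 552503 normalized counts over 9 markers in MC4R-/- and 516724 to 562823 in WT. Among the libraries, WT replicate 2 was set apart by lymphocyte transcripts (Cd3e at 106.5 normalized counts against 0 to 15.4 elsewhere) and MC4R-/- replicate 5 by atrial ones (Myl7 at 720.2 against 0 to 134.3 elsewhere). The targeted gene, Mc4r, had 4 reads over 2 of the 6 MC4R-/- libraries and 2 reads in 1 of the 4 WT libraries, at most 2 in any library, so its level in the ventricle checks no label.

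Bgn and Lum rose in the MC4R-/- ventricle, by 1.32 and 1.47 times, while none of the other tested members passed the test. These were 2 of the 9 tested members, both higher, where 0.459% of all tested genes passed in either direction and 0.287% passed as higher. The members and the gene lists below were chosen with earlier results of these data known, so such shares do not compare a blindly chosen set with all genes. Of the 9 tested members 0 passed as lower by limma (edgeR 0, DESeq2 0, with no adjusted p for Omd in DESeq2), and 3 had an unadjusted p below 0.05, all 3 higher, against 9.60% of all tested genes in either direction and 5.19% as higher. In 8 of the 9 the mean log2 value was higher in MC4R-/-, and in 48.4% of all tested genes. The median log2 fold change of the 9 was 0.29 (0.12 without MC4R-/- replicate 5), against -0.01 over all tested genes.

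Summed over the 10 members, the normalized counts were 6894 to 8145 in MC4R-/- and 5996 to 7074 in WT, which is 0.134% ± 0.00952 (SD, n = 6) and 0.115% ± 0.00818 (SD, n = 4) of all normalized counts. The ranges of the 2 genotypes overlapped. Dcn made up 49.2% ± 1.23 (SD, n = 6) of the sum in MC4R-/- and 52.8% ± 1.03 (SD, n = 4) in WT, Bgn 24.4% ± 1.56 and 21.3% ± 1.41, Ogn 9.83% ± 1.59 and 11.1% ± 1.17, and Lum 6.38% ± 0.672 and 4.995% ± 0.689. The share of Dcn was the only one of these whose ranges did not overlap, from 48.1% to 51.2% in MC4R-/- and from 51.7% to 53.9% in WT. Shares of a sum move together, so a higher share of Bgn and Lum lowers that of Dcn.

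Per kb of transcript, Dcn was the most abundant member, at 2135 ± 152.6 normalized counts per kb in MC4R-/- and 1988 ± 122.7 in WT. Bgn followed at 768.6 ± 78.6 and 580.9 ± 37.6, then Ogn at 291.1 ± 41.9 and 285.8 ± 38.4, and Lum at 197.9 ± 15.7 and 136.0 ± 27.6. Prelp was at 127.3 ± 21.7 and 98.1 ± 25.0 per kb, and Aspn at 84.5 ± 9.83 and 78.5 ± 15.9. Podn stood lower, at 24.5 ± 6.70 and 28.4 ± 5.27, and Fmod (10.9 ± 6.09 and 5.53 ± 7.69) and Omd (4.21 ± 2.05 and 3.28 ± 1.29) were lowest of those detected (SD, n = 6 and 4 throughout). In WT the ranges of Lum and Prelp, of Prelp and Aspn, and of Fmod and Omd overlapped, and in MC4R-/- those of Podn and Fmod and of Fmod and Omd. All other neighbours in this order were apart in both genotypes.

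**Figure D1:**
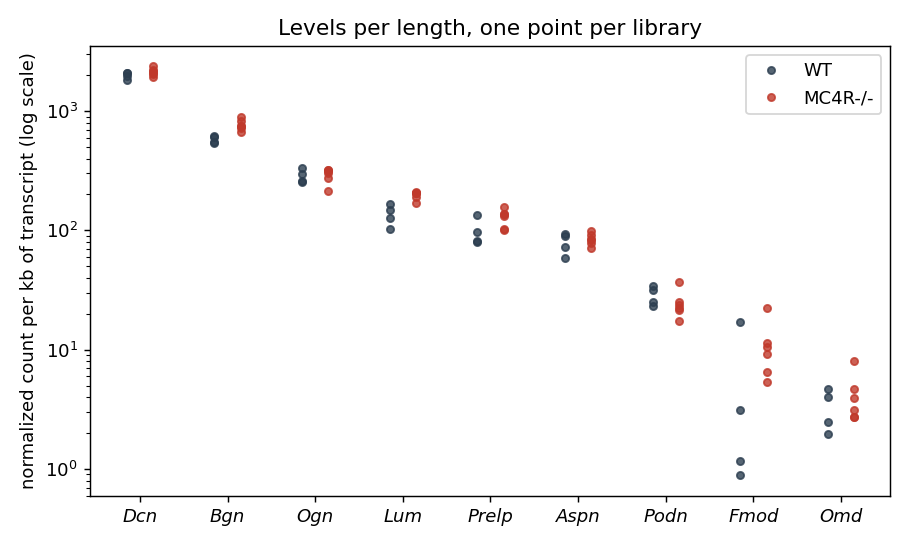
Normalized counts per kb of transcript (y axis, log scale) of the 9 detected members (x axis, in falling order), with 1 point per library, WT in dark blue and MC4R-/- in red. Dcn lies highest, at 2135 (MC4R-/-) and 1988 (WT) per kb on average, and Omd lowest, at 4.21 and 3.28.

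Among the class I genes, Bgn rose. Bgn encodes biglycan, which carries chondroitin or dermatan sulfate chains and binds collagen and TGF-beta. Its normalized counts in WT replicates 1 to 4 were 1461, 1319, 1337 and 1503, and in MC4R-/- they ran from 1621 to 2159 with a median of 1825. Every MC4R-/- library lay above every WT library. The genotypes did not overlap in 2.28% of all tested genes, and 1.34% had MC4R-/- above WT. On the log2 scale the fold change was 0.40 ± 0.07 (SE; 95% interval 0.25 to 0.55; limma with Benjamini-Hochberg adjustment, adjusted p = 0.00927). The adjusted p was 0.25 in limma without its trend and robust steps, and it stayed below 0.05 whichever library was left out (at most 0.0377). In a bulk sample, a higher share of fibroblasts and more RNA per fibroblast cannot be told apart, here or in the results that follow.

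Dcn, which encodes decorin, the close relative of biglycan that binds collagen I and limits the lateral growth of fibrils, did not pass. Its normalized counts were 3654, 3209, 3669 and 3447 in WT, and 3371 to 4166 with a median of 3762 in MC4R-/-. The ranges overlapped, with 4 of 6 MC4R-/- libraries above the highest WT library. Its log2 fold change was 0.10 ± 0.07 with a 95% interval of -0.03 to 0.24 (limma, adjusted p = 0.671), so a rise of more than 1.18 times lies outside the interval. The ratio of Bgn to Dcn, both in normalized counts, was 0.438 to 0.559 in MC4R-/- and 0.365 to 0.436 in WT. These ranges did not overlap, though the lowest MC4R-/- library (replicate 5) and the highest WT library (replicate 4) were close to each other.

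Aspn encodes asporin, a class I member without glycosaminoglycan chains that binds collagen and TGF-beta. It had 170.3, 136.3, 207.7 and 217.5 normalized counts in WT and 165.6 to 229.8 (median 195.0) in MC4R-/-, and the genotypes overlapped over most of their range. The log2 fold change was 0.12 ± 0.12 with a 95% interval of -0.13 to 0.36 (limma, adjusted p = 0.804), and its sign turned without WT replicate 2.

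Lum rose among the class II genes. It encodes lumican, a keratan sulfate proteoglycan that regulates collagen fibril assembly in cornea, skin and heart. In WT replicates 1 to 4 it had 409.8, 252.7, 359.9 and 309.0 normalized counts. In MC4R-/- it had 462.8, 512.3, 504.4, 508.5, 415.3 and 503.0 in replicates 1 to 6. The genotypes did not overlap, but the highest WT library and the lowest MC4R-/- library were close. The log2 fold change was 0.56 ± 0.10 (SE; 95% interval 0.34 to 0.77; limma with Benjamini-Hochberg adjustment, adjusted p = 0.0112). The call was lost without WT replicate 4 (adjusted p = 0.0625) and in limma without its trend and robust steps (adjusted p = 0.273). The ratio of Lum to Dcn was 0.0997 to 0.141 in MC4R-/- and 0.0788 to 0.112 in WT, and it overlapped through MC4R-/- replicate 5 and WT replicate 1.

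Prelp encodes a class II protein that binds heparan sulfate and anchors basement membranes to collagen. Its normalized counts were 483.9, 295.2, 289.3 and 349.5 in WT and 371.8, 476.2, 494.0, 361.0, 563.2 and 494.9 in MC4R-/- replicates 1 to 6. WT replicate 1 lay among the MC4R-/- libraries, and the other WT libraries lay below all of them. Its log2 fold change was 0.39 ± 0.17 with a 95% interval of 0.02 to 0.76, and it did not pass over all genes (limma, unadjusted p = 0.0392, adjusted p = 0.484).

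Fmod, for fibromodulin, a class II protein that guides collagen crosslinking in tendon and cartilage, had the same pattern over the libraries with a wider span. Its normalized counts were 52.9, 3.61, 2.77 and 9.68 in WT and 16.6, 33.1, 28.7, 20.3, 69.9 and 35.4 in MC4R-/- replicates 1 to 6. All 6 MC4R-/- libraries stood above 3 of the WT libraries and 5 of the 6 stood below WT replicate 1. With all libraries the log2 fold change was 1.66 ± 0.76 with a 95% interval of -0.07 to 3.39 (limma, adjusted p = 0.55). The ratio of the mean normalized counts was 1.97, a smaller change than on the log2 scale. Without WT replicate 1 the log2 fold change was 2.47 and passed (adjusted p = 0.00583). It was 0.93 by edgeR and 0.97 by DESeq2, and 1.19 without WT replicate 3, and it passed in none of these 3 settings.

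Omd encodes osteomodulin, a class II protein best known from bone. It was close to the detection limit, with 30 reads over the WT libraries and 58 over the MC4R-/- libraries. The normalized counts were 10.6, 9.03, 5.54 and 4.40 in WT and 6.10 to 18.2 (median 7.94) in MC4R-/-. The log2 fold change of 0.29 ± 0.35 had a 95% interval of -0.43 to 1.01 (limma, adjusted p = 0.849), which spans folds from 0.744 to 2.02. Omd lies inside Cenpp, a gene of the opposite strand with more normalized counts than Omd in both genotypes, and reads of Omd and Cenpp cannot be told apart without the strand setting of the counting. Kera, for keratocan, the keratan sulfate proteoglycan of the cornea, had 0 reads in all 10 libraries, which, among 57637707 reads, allows a total of up to 3 reads (counting error only).

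Ogn, of class III, encodes osteoglycin, also called mimecan, a matrix protein present in heart and bone. Its normalized counts were 758.1, 663.5, 862.5 and 649.8 in WT and 547.4 to 826.8 (median 789.6) in MC4R-/-. No MC4R-/- library lay above the highest WT library, and MC4R-/- replicate 6 was the lowest of all 10. With a log2 fold change of 0.02 ± 0.11 and a 95% interval of -0.21 to 0.25 (limma, adjusted p = 0.975), the interval spans folds from 0.865 to 1.19. The sign of this small value turned in several leave-one-out runs.

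Podn, of class V, encodes podocan, which restrains the growth of smooth muscle cells. It was the 1 member with a lower mean log2 value in MC4R-/-, and it did not pass. The normalized counts were 73.1, 107.4, 78.9 and 101.2 in WT and 54.8, 71.3, 74.9, 68.1, 117.5 and 79.8 in MC4R-/- replicates 1 to 6. MC4R-/- replicate 5 was the highest of all libraries, and the other MC4R-/- libraries lay at or below the middle of the WT range. The log2 fold change was -0.23 ± 0.17 with a 95% interval of -0.58 to 0.11 (limma, adjusted p = 0.715), and it was -0.36 without that replicate (adjusted p = 0.372).

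**Figure D2:**
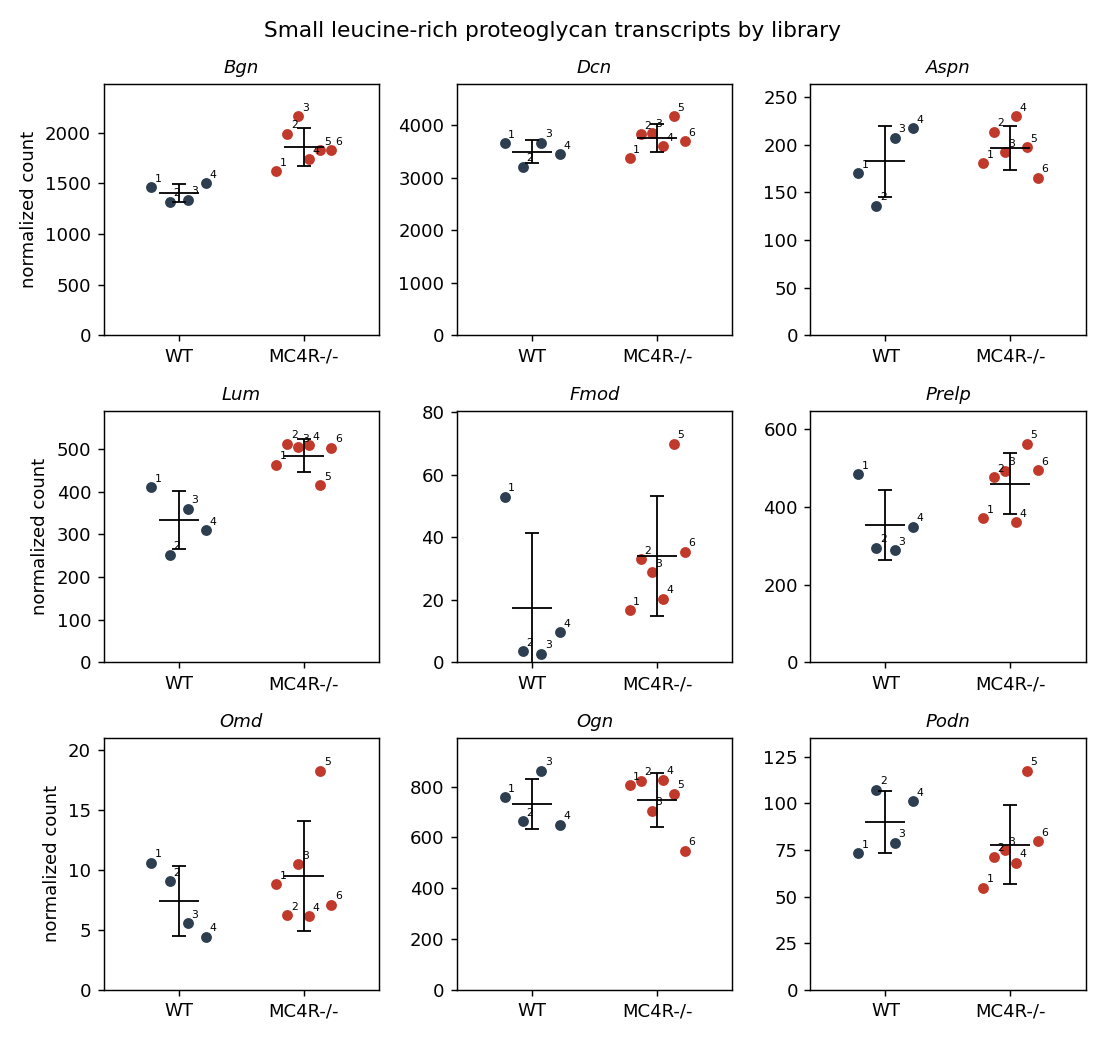
Normalized counts (y axes, each from 0) of the 9 detected members in WT (dark blue) and MC4R-/- (red), with 1 point per library numbered by replicate, and black bars for the mean ± SD. Bgn and Lum show no overlap between the genotypes, and WT replicate 1 lies with the MC4R-/- libraries for Fmod and Prelp.

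**Figure D3:**
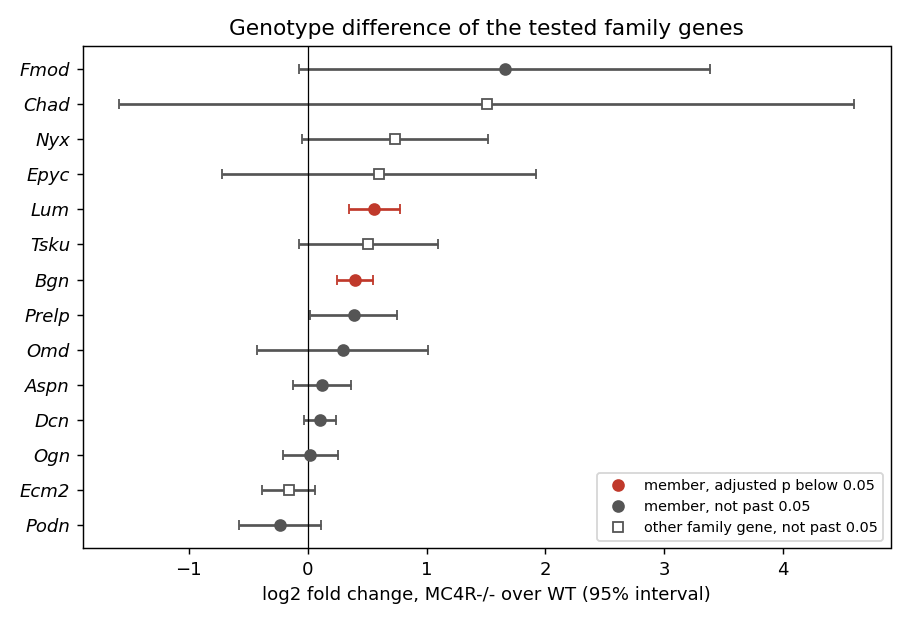
Log2 fold change, MC4R-/- over WT, with its 95% interval from limma (x axis), for the 9 tested members (circles) and the 5 tested other family genes (open squares). Bgn (0.40) and Lum (0.56), in red, are the 2 with an adjusted p below 0.05, and the intervals of Fmod and Chad are the widest.

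The other genes of the family were listed as Ecm2, Epyc, Optc, Chad, Nyx, Tsku and Podnl1, and 5 of the 7 were tested. None of the 5 passed by limma (0 calls, 0 with unadjusted p under 0.05, and 0 in edgeR and DESeq2). DESeq2 gave no adjusted p for Epyc, Chad and Nyx, so it could call only Ecm2 and Tsku. Ecm2, the neighbour of Aspn on chromosome 13, had 185.2 ± 18.9 (SD, n = 6) against 208.7 ± 34.7 (SD, n = 4) normalized counts. Chad, for chondroadherin, a protein of cartilage, had 26.9, 0, 0 and 0.880 in WT and 0.978, 11.4, 8.71, 0, 40.5 and 19.2 in MC4R-/- replicates 1 to 6. WT replicate 1 and MC4R-/- replicate 5 were highest, as they were for Fmod. Epyc, for epiphycan, another cartilage member, came to 14 reads in all and was highest in the same 2 libraries, with 2.89 and 7.09 normalized counts. Tsku, which encodes a secreted modulator of BMP signalling, had 18.1 ± 5.83 against 12.0 ± 2.83, and Nyx, known from the retina, 6.97 ± 2.15 against 3.98 ± 1.87. Optc and Podnl1 had 3 and 10 reads over the 10 libraries and were not tested.

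Across the 10 libraries Fmod and Prelp moved together. Over the log2 values Pearson's r was 0.956 (permutation p = 5e-05) and Spearman's rho was 0.927 (permutation p = 0.00041). Without the 2 libraries farthest from the median of Fmod, WT replicates 2 and 3, r was 0.912. The high libraries of Fmod, MC4R-/- replicate 5 and WT replicate 1, stayed in. Within the 6 MC4R-/- libraries r was 0.914, and the 4 WT libraries are too few for a value. Of the 36 pairs among the 9 tested members this was the 1 pair past 0.05 after Benjamini-Hochberg adjustment (adjusted p = 0.0018 for r and 0.0148 for rho). Over the 10 libraries the other pairs were looser, with a median r of 0.26 over the 36 and 9 of them negative. Within the 6 MC4R-/- libraries, however, other pairs had a higher r than Fmod and Prelp. These were Fmod and Podn (0.966), Dcn and Fmod (0.929) and Dcn and Podn (0.922). Bgn and Lum had r = 0.803 (permutation p = 0.00398, adjusted p = 0.0716) and rho = 0.842 (permutation p = 0.00386, adjusted p = 0.0695) over the 10 libraries. Within the 6 MC4R-/- libraries r was 0.357, and without the 2 libraries farthest from the median of Bgn it was 0.738. The permutations ran over all 10 libraries, so a genotype difference shared by both genes of a pair enters r and its p. With the mean of each genotype taken out, r was 0.310 for Bgn and Lum and 0.932 for Fmod and Prelp. Lum and Podn had the lowest r of the 36 pairs, at -0.64 (permutation p = 0.044, adjusted p = 0.174). Their rho was -0.61 (permutation p = 0.065, adjusted p = 0.26), and r was -0.34 without the 2 libraries farthest from the median of Lum. This pair did not pass, and neither did the stronger pairs Dcn and Prelp (r = 0.770, adjusted permutation p = 0.0961) and Bgn and Prelp (r = 0.755, adjusted permutation p = 0.136).

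Of the 4 tested atrial markers, Myl7, Myl4 and Sln were highest in MC4R-/- replicate 5 and, within WT, in replicate 1, as Fmod was. Nppa, for atrial natriuretic peptide, was also highest in MC4R-/- replicate 5 but not in WT replicate 1: it had 584.9, 499.2, 692.2 and 1332 normalized counts in WT, highest in replicate 4, and 395.6 to 1360.4 in MC4R-/-, with a lower mean log2 value in MC4R-/- (log2 fold change -0.11; limma, adjusted p = 0.963). Myl7, the atrial myosin light chain, had 48.1, 0.903, 1.38 and 0 normalized counts in WT and 0.978, 63.0, 8.71, 1.02, 720.2 and 134.3 in MC4R-/- replicates 1 to 6. Sln, for the atrial calcium pump regulator sarcolipin, was at 3.85 in WT replicate 1 and 0 in the other WT libraries, and it reached 170.2 in MC4R-/- replicate 5. Of 5 atrial markers 4 were tested and 0 passed (limma; unadjusted p under 0.05 in 0, edgeR 0, DESeq2 0), and their summed level was 539.2 to 3155 normalized counts in MC4R-/- and 504.6 to 1338 in WT. Of 9 epicardial and valve markers, 8 were tested and 0 passed by limma (unadjusted p under 0.05 in 0, edgeR 0, DESeq2 0), with sums of 48.5 to 143.8 and 47.1 to 95.1. Of 10 cartilage, bone and tendon markers 4 were tested and 0 passed by limma (unadjusted p under 0.05 in 0, edgeR 0, DESeq2 0). They summed to 28.4 to 61.9 and 24.9 to 53.9, and the defining cartilage gene Col2a1 was at 0 in 8 libraries and at 1 read each in the other two. Outside the atrial list, Comp and Wif1 were also highest in MC4R-/- replicate 5 and, within WT, in replicate 1. Comp, from the list of activated fibroblast markers, had 83.1 and 54.8 normalized counts there, and the valve marker Wif1 54.7 and 46.2. Thbs4, from the list of Comp, was highest in WT replicate 1 but, within MC4R-/-, in replicate 3. Upk3b, from the list of Wif1, was highest in MC4R-/- replicate 5 but, within WT, in replicate 4. The part of all these markers in the levels of Fmod, Prelp and Chad was not tested.

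**Figure D4:**
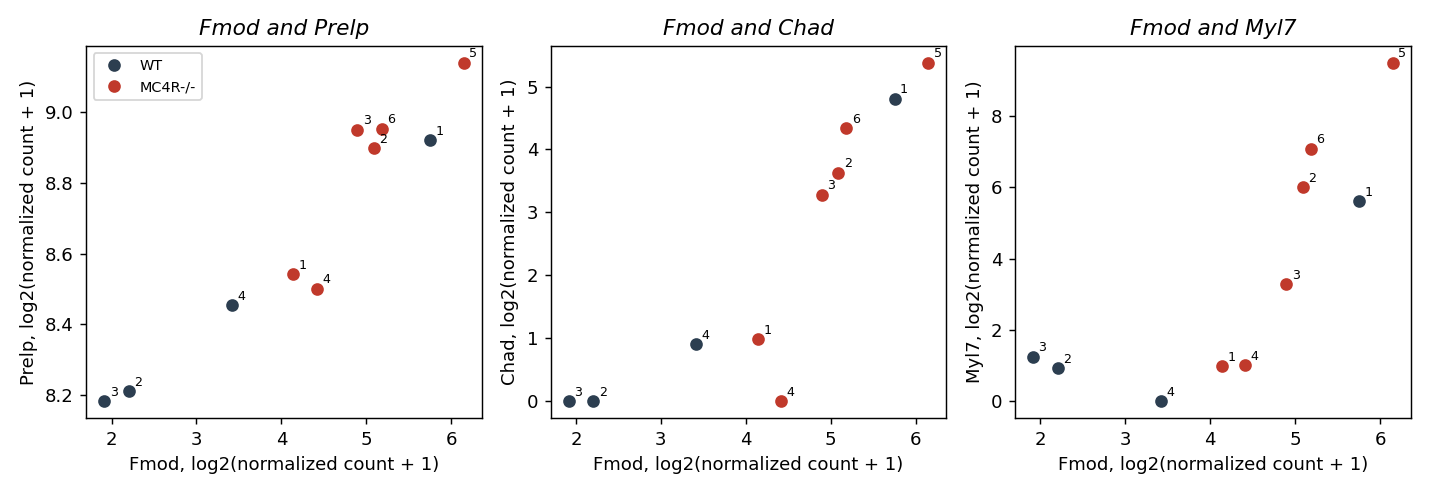
Log2(normalized count + 1) of Fmod (x axes) against Prelp, Chad and the atrial gene Myl7 (y axes), with 1 point per library numbered by replicate, WT in dark blue and MC4R-/- in red. WT replicate 1 lies away from the other WT libraries in all 3 panels, and MC4R-/- replicate 5 is highest in each.

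The members lie in clusters on the genome, apart from Bgn on chromosome X and Podn on chromosome 4, with values set side by side here by cluster. On chromosome 10, Dcn (97479500 to 97518163), Lum (97565501 to 97572703), Kera and Epyc stand within 202.4 kb. Lum passed there and its neighbour Dcn did not, but the difference between them was not tested and their ratio overlapped between the genotypes. Kera was not detected. Optc, Prelp (133910304 to 133930102) and Fmod (134037254 to 134048280) stand within 151.1 kb of chromosome 1. The nearest tested gene beyond Fmod, the antiproliferative gene Btg2 at a distance of 26.6 kb, had 191.7 ± 17.9 normalized counts in MC4R-/- and 245.8 ± 33.5 in WT. Its mean was lower where those of Fmod and Prelp were higher (limma, unadjusted p = 0.00159, adjusted p = 0.142). The genotypes did not overlap for Btg2, with 163.1 to 211.1 in MC4R-/- and 214.5 to 285.2 in WT. Such a separation, in either direction, held for 2.28% of all tested genes. On chromosome 13, Ecm2, Aspn, Omd and Ogn share 119.7 kb and lie inside Cenpp, a centromere gene of the opposite strand. Cenpp had 18.0 ± 6.68 against 14.8 ± 5.26 normalized counts (SD, n = 6 and 4), below Ogn, Aspn and Ecm2 but above Omd at 9.48 ± 4.60 and 7.39 ± 2.90. The library kit keeps the strand, but the strand setting of the counting has no source here. The other nearest tested genes beside the clusters did not pass by limma. Their log2 fold changes were -1.28 (Lax1, chromosome 1), -0.55 (Btg1) and 0.06 (Atp2b1, both chromosome 10), and 0.03 (Ippk) and 0.0045 (Nol8, both chromosome 13). Lax1 and Btg1 were highest in WT replicate 2. All coordinates are of GRCm38.

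Promoters of 8 of the 10 members were in the RefSeq promoter table of GRCm38.p6, each a window of 300 bases around a start site. Shown are those of Bgn, which rose, and of Fmod and Prelp, which moved together over the libraries. Capitals mark matches, on either strand, to any of 5 motifs spelled out after the sequences. The Bgn window is chrX:73483351-73483650 (+ strand), that of Fmod chr1:134037004-134037303 (+) and that of Prelp chr1:133921352-133921651 (-). The windows of Bgn and Fmod span the 5′ end of the gene. That of Prelp lies inside the gene (133910304 to 133930102), away from its 5′ end, so its matches belong to an internal start site.

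Bgn: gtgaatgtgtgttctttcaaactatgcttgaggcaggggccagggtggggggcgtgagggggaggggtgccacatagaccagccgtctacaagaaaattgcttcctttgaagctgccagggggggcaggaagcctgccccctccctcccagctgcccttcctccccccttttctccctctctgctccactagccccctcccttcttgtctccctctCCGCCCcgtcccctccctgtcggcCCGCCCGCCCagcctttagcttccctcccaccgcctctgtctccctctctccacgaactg
Fmod: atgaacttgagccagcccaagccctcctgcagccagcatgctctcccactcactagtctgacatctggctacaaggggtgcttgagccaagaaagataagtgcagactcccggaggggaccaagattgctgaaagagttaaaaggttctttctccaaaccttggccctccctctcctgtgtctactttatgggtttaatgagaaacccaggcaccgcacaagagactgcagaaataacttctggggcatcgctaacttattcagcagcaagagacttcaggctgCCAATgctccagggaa
Prelp: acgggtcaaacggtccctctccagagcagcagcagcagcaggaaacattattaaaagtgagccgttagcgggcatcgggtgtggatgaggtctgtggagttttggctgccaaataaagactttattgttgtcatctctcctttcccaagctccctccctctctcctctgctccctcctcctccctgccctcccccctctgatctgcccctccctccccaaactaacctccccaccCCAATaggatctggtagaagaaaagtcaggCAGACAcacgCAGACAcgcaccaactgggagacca

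The Bgn window held 3 matches to the GC box (GGGCGG), the last 2 overlapping, a motif found in 35.9% of 27025 promoters. Fmod and Prelp each held 1 match to the CCAAT box, found in 37.9% of promoters, and Prelp 2 to the Smad box (CAGACA), found in 21.0%. No match in these 3 windows was found for the TATA box (TATAAA), which 14.2% of promoters hold, or for the AP-1 site (TGANTCA), which 7.93% hold.

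The enzymes that build the sugar chains showed no call. Of 22 genes for the linker and for chondroitin or dermatan sulfate, 21 were tested and 0 passed by limma (unadjusted p under 0.05 in 0, edgeR 0, DESeq2 0), with a median log2 fold change of 0.02. Their summed level was 2108 to 2253 normalized counts in MC4R-/- and 2081 to 2171 in WT, so both genotypes covered nearly the same range. Chsy1, a chondroitin sulfate polymerase, had 87.8 ± 10.2 against 78.5 ± 11.6, and B3galt6, which adds a galactose of the linker, 20.5 ± 2.34 against 16.1 ± 2.60. Of 9 keratan sulfate genes 7 were tested and 0 passed by limma (unadjusted p under 0.05 in 1, edgeR 0, DESeq2 0). That 1 gene was the sulfotransferase Chst4, at 3.32 ± 2.04 against 0.44 ± 0.88 normalized counts, a level of a few reads. DESeq2 gave it no adjusted p.

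Collagens that the proteoglycans coat leaned the same way as Bgn and Lum without passing. All 13 tested of 15 fibrillar, fibril-associated and type VI collagen genes had a higher mean log2 value in MC4R-/-, with a median log2 fold change of 0.25. By limma 0 passed over all genes (unadjusted p under 0.05 in 7, all higher, edgeR 0, DESeq2 0). Of all tested genes, 48.4% had a higher mean log2 value in MC4R-/-. An unadjusted p under 0.05 was found in 9.60% of them, and in 5.19% as higher. Col14a1, a collagen on fibril surfaces that can bind decorin, had 94.9 ± 13.8 against 69.5 ± 10.5 normalized counts (limma, adjusted p = 0.202). Col6a3, a chain of the type VI collagen that biglycan binds, had 347.7 ± 47.7 against 275.9 ± 41.9 (limma, adjusted p = 0.231).

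Among 14 proteases that process or cleave these proteins, 14 were tested and 0 passed by limma (unadjusted p under 0.05 in 5, of which 4 higher and 1 lower, edgeR 0, DESeq2 0). Mmp14, a membrane-bound collagenase, had 153.2 ± 17.6 against 116.1 ± 11.7 normalized counts (limma, adjusted p = 0.135), and it passed without WT replicate 2 (adjusted p = 0.0492). The stromelysin gene Mmp3 had 51.3 ± 23.7 against 26.5 ± 8.27, while the collagenase gene Mmp13 had 3.76 ± 1.56 against 8.65 ± 3.10.

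Of 14 receptors for these proteins, all 14 were tested and 0 passed by limma (unadjusted p under 0.05 in 2, both lower, edgeR 0, DESeq2 0). Igf1r, the insulin-like growth factor receptor to which decorin binds, had 168.5 ± 38.9 against 223.3 ± 9.63 normalized counts (limma, adjusted p = 0.255). Its genotypes did not overlap, which held for 2.28% of all tested genes. Tlr4, a Toll-like receptor for soluble biglycan, had 140.9 ± 14.6 against 175.5 ± 47.8. The 6 TGF-beta ligands and receptors were all tested, and 0 passed by limma (unadjusted p under 0.05 in 0, edgeR 0, DESeq2 0), with a median log2 fold change of 0.06. Tgfb3 had 127.4 ± 21.4 against 109.7 ± 11.5 normalized counts.

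Of 16 fibroblast markers outside the family, all tested, 1 passed as higher and 0 as lower by limma (unadjusted p under 0.05 in 9, of which 8 higher and 1 lower, edgeR 0, DESeq2 1). The mean log2 value was higher in MC4R-/- for 11 and lower for 5, and the median log2 fold change was 0.15. Of all tested genes, 48.4% had a higher mean and 9.60% an unadjusted p under 0.05. Their sum was 14354 to 17140 normalized counts in MC4R-/- and 13077 to 15686 in WT, so the ranges overlapped. The 1 that passed was Mfap5, a microfibril gene, at 160.7 ± 31.5 against 102.7 ± 21.3 (limma, adjusted p = 0.0481), and it lost its call in 8 of 10 leave-one-out runs. Next by p, Dpt had 567.2 ± 44.0 against 478.3 ± 47.5 normalized counts (limma, adjusted p = 0.225). Fbln2 had 746.0 ± 91.4 against 623.7 ± 50.4 (limma, adjusted p = 0.255). Of markers in common use for cardiac fibroblasts, the receptor gene Pdgfra had 403.8 ± 27.6 against 339.1 ± 34.6 normalized counts (limma, adjusted p = 0.229), and the transcription factor gene Tcf21 38.0 ± 3.59 against 36.3 ± 8.28 (limma, adjusted p = 0.923). Scara5, a scavenger receptor gene, was the 1 with a lower mean and an unadjusted p under 0.05 (limma, log2 fold change -0.22, adjusted p = 0.437). Of 12 markers of activated fibroblasts 11 were tested and 0 passed by limma (unadjusted p under 0.05 in 6, of which 5 higher and 1 lower, edgeR 0, DESeq2 0), with a median log2 fold change of 0.64. The mean log2 value was higher in MC4R-/- for 9 of these 11 and lower for 2. Fn1 had 398.6 ± 24.2 against 317.2 ± 44.9 normalized counts (limma, adjusted p = 0.0951), and Cilp 199.1 ± 82.2 against 102.9 ± 36.4. Acta2, the smooth muscle actin of myofibroblasts and vessel walls, went the other way, at 487.4 ± 113 against 658.1 ± 73.0. It is also in the list of smooth muscle markers. The part of these cells in the rise of Bgn and Lum was not tested.

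Markers of other cell types gave 0 calls by limma in each list. At an unadjusted p below 0.05 there were 0 of 9 endothelial, 2 of 9 smooth muscle and pericyte markers (both lower in MC4R-/-), 5 of 11 macrophage markers (all 5 higher), 0 of 10 lymphocyte markers and 1 of 9 cardiomyocyte markers (higher). By edgeR 0 passed in these lists, and by DESeq2 1 macrophage marker, C1qb, did. Of the 11 macrophage markers 10 had a higher mean log2 value in MC4R-/-, and in C1qb, a complement gene, and Itgam, an integrin gene, every MC4R-/- library lay above every WT library, as for Bgn and Lum. Of all tested genes, 1.34% had MC4R-/- above WT in this way, 48.4% a higher mean and 9.60% an unadjusted p under 0.05. Macrophage markers summed to 2726 to 3290 normalized counts in MC4R-/- and 2333 to 2868 in WT. Lymphocyte markers summed to 16.6 to 39.5 and 28.2 to 977.6, with the highest value in WT replicate 2, which was also the lowest of all libraries in Bgn, Dcn, Lum and Aspn. Their part in these results was not tested, and Bgn and Lum passed without that library (limma, adjusted p = 0.0131 for Bgn and 0.0126 for Lum).

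Genes whose pattern over the 10 libraries was most like that of the family were sought among 8855 genes with a mean of at least 50 normalized counts. The family was summarised as the mean z-score of its 7 members at or above that level, and likeness was Pearson's r with it, given as a description. The highest were Fmo1 (0.935), a flavin-containing monooxygenase, Nedd1 (0.906), a centrosome protein, Cnbd2 (0.902), Itgbl1 (0.89), an integrin-like secreted protein, Jam3 (0.885), a junction adhesion molecule, and Prg4 (0.88), the lubricating proteoglycan of joints. None of these 6 passed between genotypes (limma, 0 called, adjusted p from 0.491 to 0.688), and their r within genotypes was 0.814 to 0.896.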

How the data were processed

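Poly(A) RNA of left ventricle was sequenced in 6 MC4R-/- and 4 WT libraries. The deposited signal is a normalized count, scaled between libraries by the authors and not by gene length, as the values show: with a tolerance of 0.1, 99.99% to 100% of a library's values above 0 are whole multiples of what 1 read is worth. Dividing by that value gave back the reads. Per the submitters' processing notes the tools include TopHat2 2.1.0, Cufflinks 2.2.1 and Cuffnorm 2.2.1.1, with the build mm10. Annotation and strand setting: not given in the sources used. All 10 columns of the table were used.

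Symbols came from RefSeq accessions (23980 rows by a RefSeq table of GRCm38.p6, 127 more by GENCODE M21, 53 without symbol). The test was limma 3.58.1 in R 4.3.3 (trend and robust) on log2(normalized count + 1) without covariates, for genes with a mean of at least 1, with two-sided p-values and a Benjamini-Hochberg threshold of 0.05. It was also run on simulated counts, with changes placed only in genes of higher count. That run does not cover low genes such as Fmod, Omd and Chad. Alternatives were other pseudocounts, filters and scalings, plain limma, edgeR 4.0.16 and DESeq2 1.42.0 on recovered reads, a replicate block and leaving out libraries. DESeq2 gave no adjusted p for some genes, and the DESeq2 counts take these as not passing. They include Omd, Epyc, Chad, Nyx, Chst4, Mmp13, Cd4, Cd8a, Msln, Upk3b, Runx2 and Sox9. The comparison of replicates 1 to 4 without a block was added after seeing the data. Correlations used 100000 permutations. List counts include a gene whose row also names a microRNA.

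The members and lists were chosen with earlier results of these data known. Named genes are the members, the tested other family genes, at most the 3 genes of a list with the smallest p, the nearest tested neighbours of a cluster and the 6 most alike genes. Pdgfra, Tcf21, Scara5, Nppa, Col2a1, Comp, Thbs4 and Wif1 fall outside that rule and were chosen after their values were seen.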

Additional observations from a re-analysis of the deposited data

Results flagged for a closer look

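In 20 of 122 groups of libraries examined, the highest or lowest library lay far from the others of its genotype (Dixon's ratio above its 95% critical value). That value gives about 1 in 20 groups for independent values with a normal spread. Many counts here lie near 0 and some of the genes vary together, so the 20 of 122 cannot be set against that rate. Values are normalized counts, with the nearest library of the same genotype in parentheses. Among the family, Fmod stood out at 69.9 (35.4) in MC4R-/- replicate 5 and at 52.9 (9.68) in WT replicate 1, and Omd at 18.2 (10.5) in MC4R-/- replicate 5. Epyc did so at 7.09 (2.07) and 2.89 (0) in the same pair of libraries, and Chad at 26.9 (0.880) in WT replicate 1.

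The atrial genes Myl7, Myl4 and Sln stood out in those libraries too. In MC4R-/- replicate 5, Myl7 was at 720.2 (134.3), Myl4 at 904.6 (194.9) and Sln at 170.2 (22.2). In WT replicate 1, Myl7 was at 48.1 (1.38), Myl4 at 105.8 (6.92) and Sln at 3.85 (0).

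In WT replicate 2 the T cell genes Cd4 and Cd3e were at 252.7 (15.4) and 106.5 (15.4), and Mmp14 was at 133.6 (110.9). Cd3e was also set apart in MC4R-/- replicate 6 at 5.05 (1.03), and Cd8a in MC4R-/- replicate 2 at 7.23 (2.02). Chst4 was at 1.76 (0) in WT replicate 4. Fn1 was lowest in MC4R-/- replicate 4 at 350.9 (401.6), and the endothelial gene Vwf in WT replicate 3 at 221.5 (408.5).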

How the results depend on the processing

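Under 22 alternatives, 67 genes in all and 2 members (Bgn and Lum) being called with every library, the number of genes called was 0 in limma without trend and robust (1290 at an unadjusted p under 0.05), 118 by DESeq2, 167 without both WT replicate 2 and MC4R-/- replicate 5, and 26 to 118 leaving out 1 library (26 without WT replicate 4, 29 without MC4R-/- replicate 2, 31 without WT replicate 3, 37 and 44 without MC4R-/- replicates 1 and 3, and 118 without WT replicate 2). Members called were 0 without trend and robust (3 at an unadjusted p under 0.05; the cause was not tested), 1 to 3 leaving out 1 library (Lum was lost without WT replicate 4, Fmod gained without WT replicate 1), and 2 with the other pseudocounts, filters and scalings, edgeR and DESeq2. The labels give replicate numbers, but same-numbered libraries did not deviate together (correlations from -0.0601 to -0.0035), so a replicate block over replicates 1 to 4 pairs only numbers: it left 1 member called (Lum; the log2 fold change of Bgn had limma adjusted p = 0.0987) and 51 genes, against 68 genes in the same 8 libraries with no block. Signs turned for the log2 fold change of Ogn (-0.0332 to 0.109 leaving out 1 library, -0.0358 without both libraries), the log2 fold change of Aspn (-0.0129 to 0.21, and -0.0156) and the log2 fold change of Fut8 (-0.0123 to 0.111, and -0.0179). Omd was not tested with a filter at a mean of 10. Of 197 member fold changes compared, 184 kept direction and side of the threshold, with Omd in DESeq2, which has no adjusted p, counted as not passing. At the depth of these libraries, Omd, Fmod and the cartilage members rest on few reads.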
